A study of Homo sapiens with 40 samples.

Results

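CTCF binding was compared across the genome between senescent and non-senescent human beta cells by chromatin immunoprecipitation sequencing (ChIP-seq). The regions described are all 51457 CTCF peaks of the deposited table of that comparison, out of 133343 regions in the tables of the series, and they rest on 6 of its 40 samples. Each peak carried a mean normalised read count over both states, a log2 fold change of senescent over non-senescent cells with its standard error (SE), and an adjusted p. The tables used here hold no values of single libraries, so no level per library is shown and no library could be left out.

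The 6 libraries came from EndoC-βH3, an established human beta-cell line of wild-type genotype in the labels, with 3 libraries labelled senescent and 3 labelled non-senescent. EndoC-βH3 cells proliferate on immortalising transgenes, SV40 large T antigen and hTERT, which a tamoxifen-dependent Cre recombinase removes. Senescent cells had been given 4-hydroxytamoxifen (4-OHT) for 3 weeks, and non-senescent cells were the untreated control. All libraries are of 1 line, so the p-values measure the spread between 3 and 3 samples of it, and 4-OHT, transgene removal and senescence cannot be told apart.

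CTCF is a zinc finger protein that binds a long DNA motif. It blocks the cohesin complex as that complex extrudes chromatin loops, most often where motifs face each other. Its sites lie at loop anchors and domain borders, at many promoters, and at loci where it sets gene choice or parental imprinting, such as the protocadherins and H19. Methylation of a CpG inside the motif weakens binding at some sites.

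The motif matches below belong to 4 gained and 4 lost peaks with a mean count above the median, and are shown because they differ in CpG content, which is taken up again with the motif counts. Each is the best match of its peak with 5 bases on either side, read 5′ to 3′ from hg38. Capitals mark the core, which is CCA, 2 bases of any kind, AG, 2 of any kind and GGC in its exact form. The 8 were chosen after their values were seen. The peak labelled CDC6 start is centred 3.07 kb from the start of the gene and 1.76 kb from the nearest transcript start.
WDR62 intron (gained, chr19:36060623-36060652, plus strand): agagagcagCCACAGGAGGGCaccacaggc
SEC16B downstream (gained, chr1:177913865-177913894, minus strand): tgactcctgCCACCAGATGGAgctggccct
SPTLC3 upstream (gained, chr20:12966662-12966691, minus strand): acatacaacCCAGCAGATGGCacttatgag
CDC6 start (gained, chr17:40290886-40290915, minus strand): aaatattggTCACCAGATGGCaccactgat
COPS8 neighbourhood (lost, chr2:237072515-237072544, minus strand): cagtctttcCCACCAGGGGGCgctgtggca
SLC31A2 neighbourhood (lost, chr9:113113005-113113034, plus strand): tcccaacggCCAGCAGAGGGCgcgcgcctg
LDB2 neighbourhood (lost, chr4:16916911-16916940, minus strand): ctgaggctgCCACTAGAGGGAgacaggagg
OSR1 neighbourhood (lost, chr2:19363166-19363195, minus strand): gcttgctcgCCAGCAGGGGGCacgttttct
The 20-base match held no CpG in the 4 gained peaks. It held 1 in COPS8, 3 in SLC31A2, none in LDB2 and 2 in OSR1.

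A peak was called gained or lost in senescent cells when its adjusted p was under 0.2 and its fold change above 1.5, the thresholds of the study. An adjusted p was given for 39485 peaks, none of which had a mean count under 18.9, and 11972 weaker peaks had none. With the values as deposited, 1180 peaks (2.99% of those tested) were gained and 1690 (4.28%) were lost. The median peak was 849 bp wide with a mean count of 58.6 and an SE of 0.29. Direction was read only in the separate comparison of H3K27ac, a mark of active promoters, in the same line. The log2 fold change of H3K27ac was −2.29 at MKI67, −2.22 at TOP2A and −1.34 at CCNB1, all genes of proliferation. It was 2.50 at CDKN1A, a cyclin-dependent kinase inhibitor. The CTCF comparison was taken to run the same way, which was not checked on CTCF itself.

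The deposited fold change depended on the base composition of the peak. By decile of GC content, the median was 0.22 in the most AT-rich decile and −0.31 in the most GC-rich, and its Spearman correlation with GC was −0.35 over the 51457 peaks, which share their libraries. Among called peaks, gains made up 94.1% of the first of these deciles (337 gained and 21 lost) and 0.767% of the last (3 gained and 388 lost). To take local GC content into account, the median trend on GC of the 32426 peaks outside promoters, listed enhancers and H3K27ac peaks was subtracted from every peak.

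After the correction, 472 peaks (1.2% of those tested) were gained and 867 (2.2%) were lost. The correlation with GC was 0.03 and the medians of the deciles lay between −0.01 and 0.02. Of the corrected calls, 390 gains and 776 losses had been called the same way before, 82 and 91 were called only after correction, and none changed direction. Conversely, 790 gains and 914 losses were called only before correction. The correction treats the trend as known and keeps the deposited SE. Values below are GC corrected unless called deposited.

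**Figure D1:**
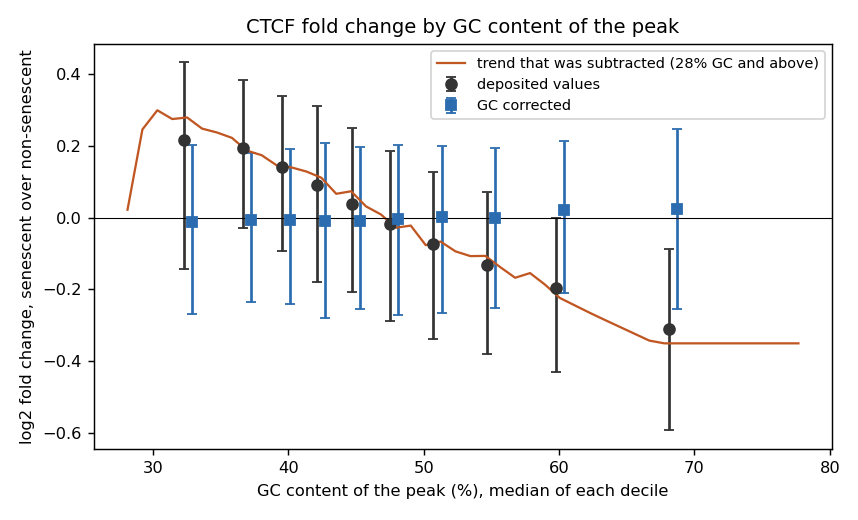
Median log2 fold change (senescent over non-senescent) of CTCF peaks in deciles of GC content, as deposited (black circles) and GC corrected (blue squares), with bars from the lower to the upper quartile and the subtracted trend as a line. The deposited medians fall from 0.22 to −0.31 with rising GC, and the corrected medians stay between −0.01 and 0.02.

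The most uniform loss was in repeated DNA. In 115 peaks, 20% or more of the bases lay in the pentamers CATTC or GAATG, the units of classical pericentromeric satellites. All 115 had a negative log2 fold change, from −2.42 to −0.43 as deposited, with a median of −1.49 deposited and −1.62 corrected. Of the 103 tested, 100 were lost and none gained, and at an unadjusted p under 0.05 by the same normal test 103 were lower and none higher. These peaks lay on 13 chromosomes, none overlapped a protein-coding gene or an H3K27ac peak, and none held a match to the CTCF motif. Their mean counts ran from 4.99 to 3172, and 38 of them were in the top decile of all peaks by count. Such sequence is present in many copies of which the genome build holds some, so a peak there can collect reads from copies elsewhere, and the handling of reads with several positions is not given in the sources used here. The part of this in the loss was not tested.

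Ribosomal DNA on the short arm of chromosome 21 behaved alike. The block held 25 peaks with mean counts from 73.0 to 4814, and 22 of the 25 were lost, with a median of −1.15 and a range of −1.94 to 0.25. The 3 peaks over the annotated 5.8S ribosomal RNA genes RNA5-8SN1, RNA5-8SN2 and RNA5-8SN3, which are near-identical copies, were all lost at −1.27, −0.86 and −0.97. Further peaks shared sequence with another CTCF peak over at least 50% of their 31-base words: of 1995 such peaks, 1646 were tested, 6 were gained and 79 lost. A class of 586 AT-rich peaks, with GC under 26%, had an imprecise deposited median of −2.38 with a median SE of 1.96, and 7 were gained and none lost of 441 tested (9 higher and none lower at an unadjusted p under 0.05). The other 48761 peaks are called peaks in other sequence from here on; 459 of them were gained and 688 lost of 37295 tested. The 4 classes were defined after the values were seen.

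Strong and weak sites in other sequence differed in the balance of gains and losses. At or above the median count, 329 peaks were gained and 281 lost, so gains made up 53.9% of calls (95% Wilson interval 50.0 to 57.9). Below it, 130 were gained and 407 lost, or 24.2% (20.8 to 28). The typical peak moved in the same direction, with a median of 0.05 above and −0.10 below. Intervals of this kind cover counting error only, and peaks of the same libraries are not replicates.

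Few of the strongest sites were called. Of the 4860 peaks in other sequence that belong to the top decile by count over all peaks, 4 were gained and 4 lost, while that decile also held 38 lost peaks in satellites and 9 in shared sequence, and 0.53% of the decile within other sequence lay past a 1.5-fold change, against 44.8% in the weakest decile, where the median SE was 0.77. Gains were most frequent among calls in the eighth decile, at 77.3%, and least frequent in the third, at 10.8%. Peaks in the first and second decile had no adjusted p. A motif match was found in 21.5% of the weakest decile and 90.5% of the strongest.

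The contrast of strong and weak sites depended on how the typical peak was set. When the GC trend was fitted within each quartile of mean count, which places the typical peak of every quartile at no change, gains were 41.9% of calls at or above the median (248 gained, 344 lost) and 53.6% below it (231 gained, 200 lost), so the order turned. With strength taken as count per kb of peak width, the shares were 42.9% and 35.9%.

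**Figure D2:**
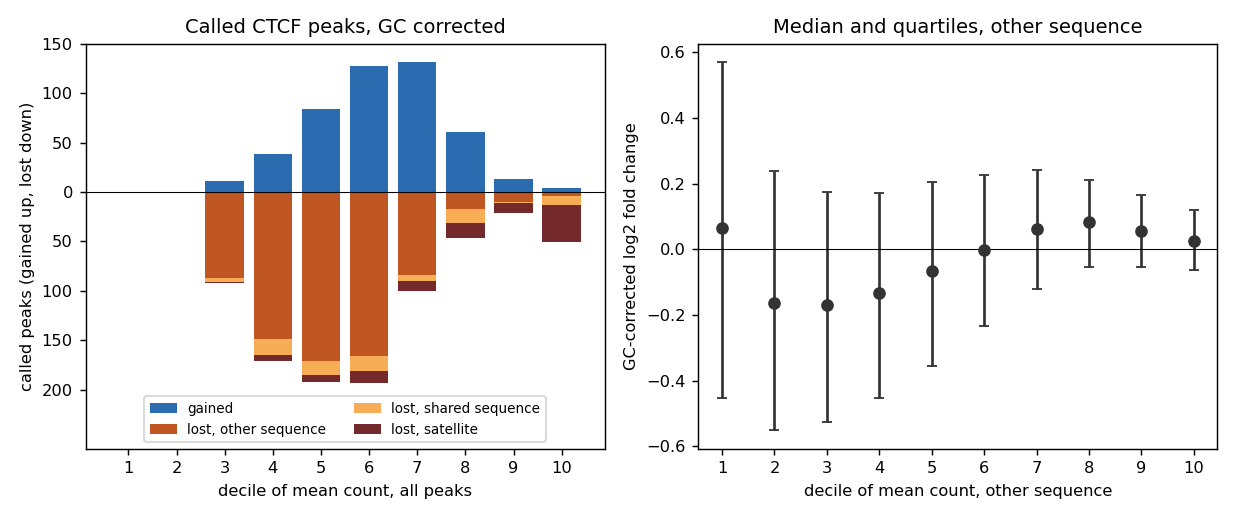
Left, number of peaks gained (blue, upwards) and lost (downwards, split into satellite, shared and other sequence) after GC correction in deciles of mean count over all peaks. Right, median GC-corrected log2 fold change with bars from the lower to the upper quartile in deciles of mean count in other sequence. The quartile range narrows from the first to the tenth decile, and satellites make up 38 of the losses of the strongest decile.

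The share of tested peaks lost was 1.73% with an exact core, 1.90% with 1 mismatch, 3.26% with 2 and 10.97% with 3 or more. Over all peaks, 113 of those with an exact core were gained and 189 lost, 279 and 412 of those with 1 mismatch, 79 and 206 of those with 2, and 1 and 60 of those with 3 or more. Their medians were 0.02, 0.01, −0.06 and −0.26. The last group had a median GC of 29.9% and a median SE of 1.34. Satellites are counted here, and with 100 of them lost against 60 losses in the last group, they are not confined to it. In the quartile-wise trend the median difference of exact cores from those with 2 or more mismatches shrank from 0.09 to 0.01. The median count fell from 143 with an exact core to 18.6 in the last group. In other sequence, shares lost with and without a motif match, from the lowest to the highest quartile of count, had no constant order. They were 3.17% and 1.90%, 3.64% and 2.78%, 2.09% and 2.27%, and 0.10% and 0.60%.

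Gains and losses differed in the CpG content of the match. In other sequence, gains made up 48.8% of calls (44.1 to 53.4; 215 gained, 226 lost) where the match held no CpG and 32.3% (26.9 to 38.2; 83 gained, 174 lost) where it held 1 or more. By number of CpGs, the share was 35.3% with 1, 31.6% with 2 and 14.8% with 3 or more. The order was the same in each quartile of peak GC. From the lowest to the highest quartile, the shares without and with a CpG were 54.2% against 26.1%, 42.5% against 28%, 48.2% against 32.6% and 57.4% against 36.0%. With the trend fitted within quartiles of count it was 52.0% against 34.1%.

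Seen from the peaks, a CpG lay in 27.9% of the matches of gained peaks (23.1 to 33.2, n = 298), 43.5% of those of lost peaks (38.7 to 48.4, n = 400) and 41.0% of those not called, so the interval of gained peaks lay under the share of uncalled peaks and that of lost peaks included it. The strand of the match made little difference, with gains at 43.1% and 42.2% of calls for the plus and minus strand. DNA methylation was not measured in the files used here.

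Called peaks lay away from genes more than others. The median distance to a start site was 45.1 kb for gained peaks, 24.4 kb for lost peaks and 19.1 kb for peaks not called, and 12.4%, 15.4% and 22.8% of them lay at promoters. At promoters 57 peaks were gained and 106 lost, at listed enhancers 40 and 50, at other H3K27ac peaks 28 and 33, and at none of these 334 and 499. Counting promoters that overlap a listed enhancer as well, 11 were gained and 8 lost of 486 tested at enhancers listed in senescent cells only (2.26% and 1.65%), and 5 were gained and 16 lost of 702 at those listed in non-senescent cells only (0.712% and 2.28%), beside 1.23% and 1.84% over tested peaks in other sequence.

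Where a CTCF peak overlapped an H3K27ac peak, calls of both tended to have the same direction. Of all H3K27ac peaks tested, 9.47% were gained and 13.1% lost (adjusted p under 0.05 and fold above 1.5). At the 112 gained CTCF peaks with such an overlap, H3K27ac was gained at 24 (21.4%; 14.8 to 29.9) and lost at 9 (8.04%). At the 128 lost CTCF peaks, it was gained at 5 (3.91%) and lost at 35 (27.3%; 20.4 to 35.6). At the 11619 not called, the shares were 5.70% and 12.1%. These comparisons used separate libraries of the same line.

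Among well-covered peaks, those at or above the median count, the clear gains included peaks at CDC6, which loads the replicative helicase at origins. The peak over an exon in the 3′ part of the gene (chr17:40302257-40303934; mean count 161) rose by 1.02 (fold 2.02, SE 0.18, adjusted p = 1.65e-05; deposited 1.08), and the peak at its promoter (chr17:40290138-40291762; 149) rose by 0.97 (SE 0.19, adjusted p = 0.000297). A weaker peak between them (count 24.8) was at −0.11 and not called. The next peak beyond, at the promoter of RARA, a retinoic acid receptor, was lost at −0.98 (SE 0.31, adjusted p = 0.077; count 47.7).

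WDR62, which encodes a spindle pole protein, held a gained peak in an intron (chr19:36060047-36061179; count 79.8) at 1.41 (fold 2.66, SE 0.25, adjusted p = 2.19e-05). The peak at its shared promoter with THAP8 was gained at 1.06 (SE 0.27, adjusted p = 0.0163; count 71.9), and a weaker peak between the 2 was at −0.50 (SE 0.42) and not called. The SPTLC3 locus, which encodes a subunit of serine palmitoyltransferase, had a gained pair 42.3 kb and 38.5 kb from its start, at 1.11 and 0.68 (adjusted p = 0.000268 and 0.0345). A weak peak inside the gene was at 0.17.

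At SEC16B, a gene of endoplasmic reticulum exit sites, a gained peak 45.2 kb from the nearest start (chr1:177912966-177914458; count 157) was at 0.90 (SE 0.18, adjusted p = 0.000265) and the promoter peak at 0.62 (SE 0.19, adjusted p = 0.0656). Both peaks between them were stronger, with counts of 459 and 429, and were not called, at 0.11 (SE 0.12) and −0.07 (SE 0.12). H3K27ac at the first of these was lower in senescent cells, at −1.26 on the log2 scale (adjusted p = 9.98e-10). Both gains at SEC16B thus flanked a pair of stronger sites that were not called.

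Other well-covered gains lay singly. ZBBX had a gained promoter peak without a motif match (1.203, SE 0.23, adjusted p = 0.0001). EPHA7, an ephrin receptor, was the nearest gene, at 302 kb, to a gain of 1.37 (SE 0.26), TBX3, a T-box transcription factor, was 15.3 kb from a gain of 1.03 (SE 0.21), and an intron of NKAIN2 held one of 0.76 (SE 0.15). The last 2 of the named gains, near ENSG00000285566 on chromosome 13 (0.98) and 1067 kb from DDX18 (1.05), had 26.8% and 27.1% GC. In peaks of 26 to 28% GC the trend was pulled down by the AT-rich peaks, and with a trend fitted without repeated and AT-rich sequence these 2 were at 0.42 and 0.56 and not called.

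**Figure D3:**
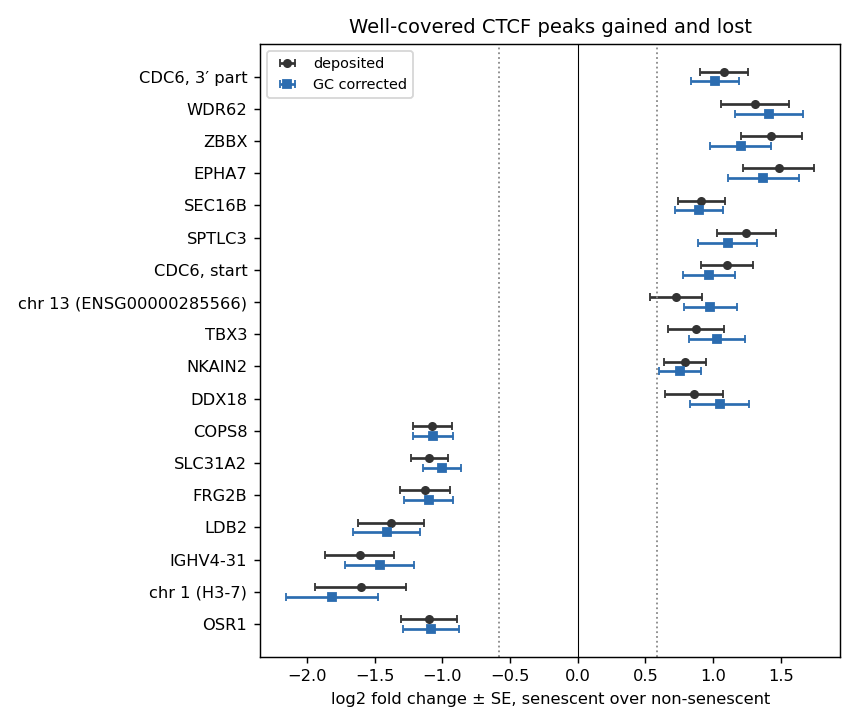
Log2 fold change (senescent over non-senescent) ± SE of the named well-covered peaks in other sequence, as deposited (black) and GC corrected (blue), with dotted lines at a 1.5-fold change in either direction. The 11 gained peaks lie between 0.76 and 1.41 after correction and the 7 lost peaks between −1.82 and −1.002.

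Among the 12 most clearly lost well-covered peaks over all sequence, 7 lay in the ribosomal DNA block and 3 in satellites, so the ranking was repeated in other sequence. There the first was 13.2 kb from the start of COPS8, a subunit of the COP9 signalosome, in the non-coding gene COPS8-DT (chr2:237072083-237073224; count 256), at −1.07 (fold 2.10, SE 0.15, adjusted p = 1.34e-09). The second overlapped the non-coding genes FAM225A and FAM225B, 38.7 kb from the copper transporter gene SLC31A2 (chr9:113111050-113113471; count 288), at −1.002 (SE 0.14, adjusted p = 3.27e-09). Both hold an exact core, as printed above.

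A peak 18.3 kb from LDB2, a LIM-domain binding cofactor, was lost at −1.41 (SE 0.25, adjusted p = 1.49e-05; count 74.6), and one 4.52 kb from OSR1, a zinc finger transcription factor, at −1.08 (SE 0.21, adjusted p = 0.000154; count 106). A peak in the immunoglobulin segment IGHV4-31 was lost at −1.46 and one 137 kb from FRG2B at −1.10. The last of those named lay 674 kb from H3-7 near the chromosome 1 centromere, at −1.82 (chr1:143231884-143232377), with 18.2% of its bases in satellite pentamers, just under the limit of 20%. The remaining 5 of the 12 were on chromosome Y and are not described. Of the named peaks with a motif match, the match held a CpG in none of 9 gained and in 4 of 5 lost.

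In the top decile of other sequence, the 8 calls included gains near AGAP1 (0.64, adjusted p = 0.00383), at SSC5D (0.60, adjusted p = 0.00268) and at the promoter shared by CDS2 and PCNA, the replication clamp (0.66, SE 0.16, adjusted p = 0.00922). These 3 gains were not called as deposited, at 0.29, 0.44 and 0.39, and were under 1.5-fold with GC of 10 kb (0.39, 0.55 and 0.42) and with quartile-wise trends (0.49, 0.54 and 0.54). Losses included a peak near MRPL19 at −0.70, which was under 1.5-fold as deposited (−0.42), with the trend fitted on all peaks (−0.20), with GC of 10 kb (−0.53) and with quartile-wise trends (−0.39). The other losses described were near USP14 on chromosome 18 (−0.95) and at chr1:143213478-143214309 (−1.70, count 1591). The latter peak had 19.2% of its bases in satellite pentamers, just under the limit of 20%. It also shared 48.8% of its words with another CTCF peak, just under the limit of 50%. The peak near USP14 shared 35.8% of its words. Reads from copies elsewhere may thus contribute to both losses, which was not tested.

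Neighbouring sites changed together to a small degree. In other sequence, the Spearman correlation of the fold changes of neighbouring peaks was 0.19 within 2 kb (2566 pairs) and 0.05 at 200 to 1000 kb (2696 pairs) as deposited, and 0.09 and 0.02 after GC correction. The correlation at short range was thus smaller once GC was taken into account, and a further correction for GC of the surrounding 100 kb left 0.09. The pairs share their libraries and, at short range, may share reads.

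Called peaks had a neighbour called the same way more often than tested peaks in general. After correction, 10.8% of lost peaks (8.65 to 13.3) had another lost peak within 50 kb and 1.60% had a gained one, beside 3.28% and 2.07% of all tested peaks in other sequence. Of gained peaks, 5.23% (3.54 to 7.66) had another gained peak and 2.61% a lost one. Chained at up to 50 kb, gains formed 12 pairs and nothing larger, and losses formed 32 pairs, 2 triples and 1 group of 4. Over all sequence, lost groups reached 21 peaks in satellites of chromosome 4 near 49.1 Mb.

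**Figure D4:**
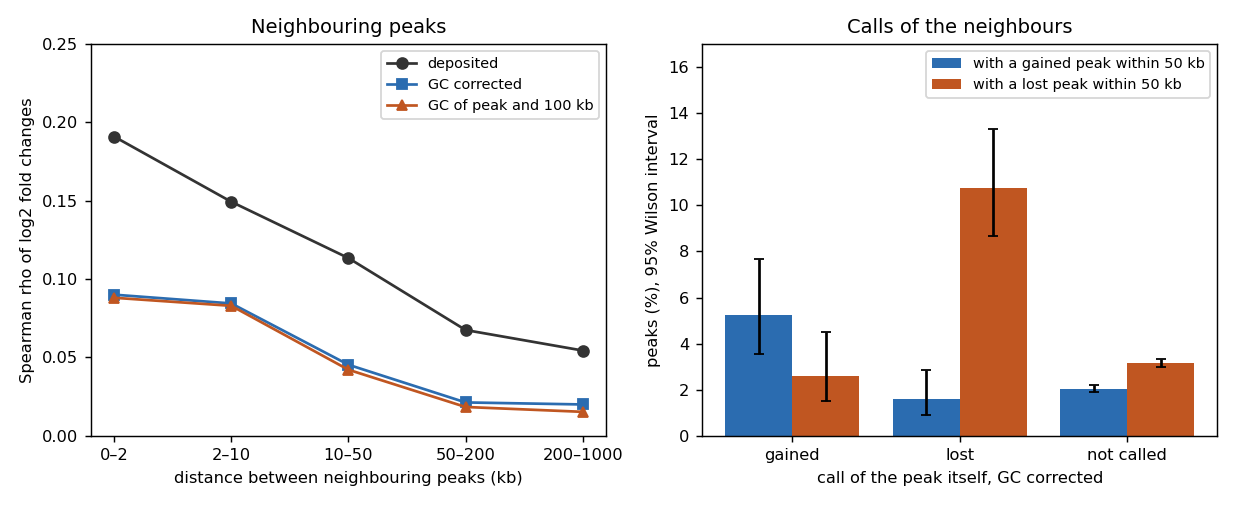
Left, Spearman correlation of log2 fold changes of neighbouring CTCF peaks in other sequence by the distance between them (kb), as deposited, GC corrected, and corrected also for the GC of 100 kb. Right, percentage of gained, lost and uncalled peaks with a gained (blue) or a lost (orange) peak within 50 kb, with 95% Wilson intervals; 10.8% of lost peaks have a lost neighbour.

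The gained pairs included CDC6, SEC16B and SPTLC3 above, a pair at NUDCD1 (0.77 and 0.81) and one at REEP1, a shaper of the endoplasmic reticulum (1.39 and 0.67). The lost groups included 3 peaks in the gamma protocadherins, a pair near USP14 (−1.22 and −0.95) and a pair with MYO1F as the nearest start, 1 peak at its promoter (−0.72) and 1 over an exon of ADAMTS10 (−0.71). REEP1 and USP14 are named here as nearest or overlapping genes only.

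The clustered protocadherins, in which CTCF takes part in the choice of a promoter, showed both behaviours in one locus. Of 36 peaks there, 26 were tested, none was gained and 5 were lost, at the starts of PCDHA1 (−1.11, adjusted p = 0.0316) and PCDHA5 (−1.66, adjusted p = 0.0197) and in the gamma cluster (−1.21, −0.91 and −0.66). The 13 peaks with a mean count of at least 100 lay between −0.36 and 0.26 and none was called, with 1 lower and none higher at an unadjusted p under 0.05. Of the 23 weaker peaks, 22 were negative, with a median of −0.74. The weakest gamma loss, adjusted p = 0.19, was not called with the GC of 100 kb added, and the one at −1.21 was not called with GC measured over 10 kb.

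The pregnancy-specific glycoprotein genes on chromosome 19 formed a longer run of loss. From CEACAM8 to TEX101 (chr19:42596138-43433414), 24 of 25 peaks were negative with a median of −0.99, and 11 of 19 tested were lost, at −1.91 to −0.65, against 14 as deposited. The largest overlapped no gene and was 56.3 kb from its nearest start, that of PSG3 (−1.91, adjusted p = 6.79e-07, count 49.3). Others lay near PSG9 (−1.69), PSG1 (−1.59), PSG8 (−1.49) and PSG5 (−1.47). All 11 held a motif match. These genes are recent copies of one another, and up to 67.0% of the 31-base words of a peak recurred in another peak, so reads of the copies could not always be told apart.

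**Figure D5:**
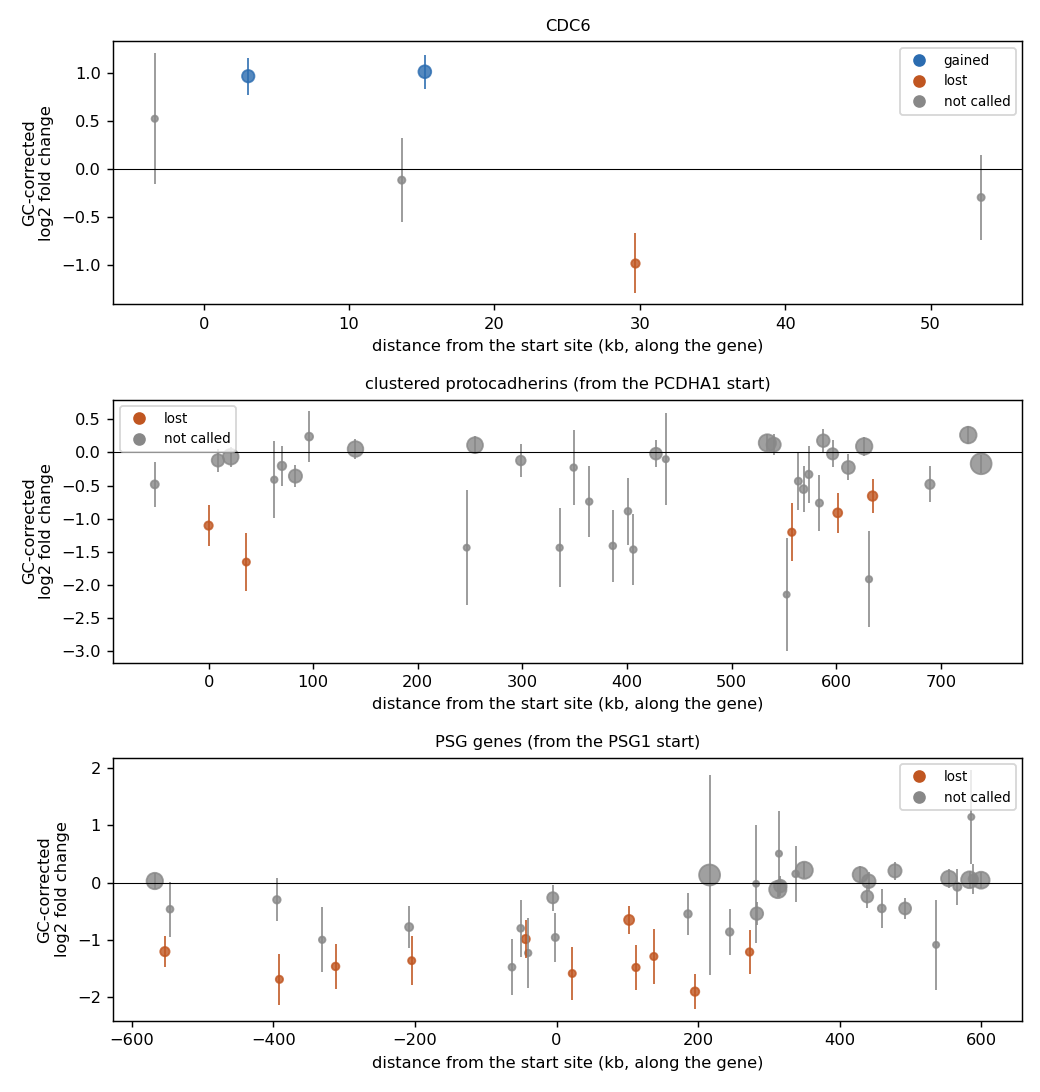
GC-corrected log2 fold change ± SE of CTCF peaks (circles, larger with higher mean count up to 500) by distance in kb from the start of CDC6, PCDHA1 and PSG1, with gained peaks in blue, lost in orange and uncalled in grey. Both gained CDC6 peaks flank an uncalled one, the largest protocadherin circles lie near 0, and 11 lost peaks spread across the PSG genes. The large circle at 0.13 with the longest bar among the PSG genes is an AT-rich peak.

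Genes of pathways were then read from lists of 264 genes, 233 of which had a CTCF peak in or within 10 kb of the gene. Of 390 tested peaks at any of them, 5 were gained and 15 lost, or 8 and 28 as deposited. The share gained was 1.28%, beside 1.2% over all peaks, and the share lost was 3.85%, beside 2.2%. The share lost was 19.2% in the clustered protocadherins and 10.5% in the HOX clusters, and lay between 0 and 4% in the other 7 lists. The median over all 508 peaks of the lists was −0.06, beside −0.0007 over all peaks. By list, the medians were lowest in the clustered protocadherins (−0.34) and the HOX clusters (−0.25) and lay between −0.11 and 0.06 in the other 7.

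CTCF and the loop extrusion machinery, its own partners, had 34 tested peaks with none called (3 higher and 1 lower at an unadjusted p under 0.05), and 2 gained as deposited. The 43 tested peaks of imprinted genes also had none called (5 higher and 4 lower at an unadjusted p under 0.05), and 3 lost as deposited. With so few peaks in these 2 lists, none called says little beside 1.2% gained and 2.2% lost over all tested peaks. HOX clusters, body-plan genes with CTCF borders, had 2 of 19 lost (10.5%), at HOXB3 (−1.25, adjusted p = 0.000223) and HOXA3 (−1.04, adjusted p = 0.142).

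At genes of beta cells, called shares are to be read beside 1.2% gained and 2.2% lost over all tested peaks. Among transcription factors, 1 of 43 tested peaks was lost (2.33%), at ONECUT1 (−1.02, adjusted p = 0.122). Among genes of the insulin granule and secretion, 1 of 100 was gained and 4 were lost, or 1% and 4%. The losses were at the promoter of PCSK1, a convertase that cleaves proinsulin (−0.96, SE 0.27, adjusted p = 0.0298), at ABCC8, the sulfonylurea receptor (−0.77, SE 0.22, adjusted p = 0.0342), at SCG5, a chaperone of a convertase (−0.63, SE 0.21, adjusted p = 0.116; −0.49 and not called as deposited), and at CACNA1D, a calcium channel (−0.88, SE 0.32, adjusted p = 0.151). CACNA1D also held the gain, at 1.03 (SE 0.36, adjusted p = 0.132). The log2 fold change of H3K27ac at the lost peaks was −1.41 at PCSK1, −0.02 at ABCC8, 0.42 at SCG5 and −0.26 at CACNA1D, and at the gained CACNA1D peak it was 1.03.

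Genes of the cell cycle had 3 gained and 2 lost of 64 (4.69% and 3.13%, beside 1.2% and 2.2% over all tested peaks). The gains were both CDC6 peaks and the CDS2 and PCNA promoter. The losses were both at MYBL2, a transcription factor of proliferating cells (−0.80, adjusted p = 0.0169, and −0.70, adjusted p = 0.177). CDK inhibitors and p53 genes had 1 gained of 27 (3.70%), at CDKN1B (1.21, SE 0.43, adjusted p = 0.145; count 27.5). Interferon-response genes had 1 lost of 42 (2.38%, near the share over all tested peaks), at OAS1, an antiviral sensor (−0.62, SE 0.20, adjusted p = 0.0777), which was not called as deposited at −0.56.

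At the insulin, IGF2 and H19 locus on chromosome 11, no peak was called after correction. The strongest, over H19 (count 750), was at 0.00 as deposited and 0.19 corrected (SE 0.10). A peak in IGF2 (chr11:2156153-2157215; count 203) was lost as deposited at −0.69 (adjusted p = 0.00321) and was at −0.42 after correction (SE 0.16, adjusted p = 0.198), under the 1.5-fold limit. The IGF2 peak beside it (count 350) went from −0.53 to −0.37, and the other 5 peaks in IGF2 or at TH lay between −0.34 and 0.74.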

How the data were processed

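According to the methods of the study, Trim Galore, Bowtie2 and the hg38 build were used by the authors for trimming and alignment, MACS2 with matched inputs for CTCF peaks, a motif filter on those peaks, and DESeq2 on raw counts. At the match threshold used here, 56.9% of the deposited peaks held a motif match, so whether the table is the filtered set is not settled. Versions, duplicate removal and handling of reads with several positions are not given in the sources used here. The deposited values used were the mean normalised count (a signal), the log2 fold change, its SE, the Wald score and the p-values; these columns are the authors' own comparison and contain no single libraries.

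The median log2 fold change in 50 equal-size GC bins was interpolated and subtracted. The result over its SE gave a normal two-sided p, adjusted by Benjamini-Hochberg over 39485 peaks. This step was run on simulated data with a straight GC trend and large changes planted in peaks of low SE. That run does not cover the bend of the real trend in AT-rich peaks or changes of the size mostly called here. Genes were taken from GENCODE 44. The motif matrix (20 bases) was estimated from 12414 peaks, with a match at a score of 12.85, which 5% of regions shifted by 10 kb passed. Of the matches printed, the one at CDC6 lies in a peak counted as at a promoter. Scripts used Python 3.11.15, numpy 2.4.6, pandas 2.3.3, scipy 1.17.1 and pysam 0.24.0.

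The regions, lists and tests were chosen with earlier results of these data known. Peaks named are the 12 gained and 12 lost with the largest corrected change over its SE among peaks at or above the median count and called the same way before and after correction, then 4 each in the top decile, the largest groups, and all called peaks of listed genes. Each takes the name of the protein-coding gene it overlaps, or otherwise of the nearest start. The ranking in other sequence was added after the data were seen. 1 locus that the rule picks is not reported here.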

Additional observations from a re-analysis of the deposited data

How the results depend on the processing

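No paired analysis was possible because the deposited tables hold no values of single libraries, and leaving out a library was not possible for the same reason. Called values kept their direction under every alternative run. The order of strong and weak sites turned with quartile-wise trends, where gains were 41.9% of stronger and 53.6% of weaker calls, and held per kb of width (42.9% and 35.9%), both GC corrected and in other sequence. Deposited gains numbered 465 at an adjusted p under 0.05, 183 above 2-fold and 1 by a Wald test against 1.5-fold (87 unadjusted). Deposited losses numbered 610, 702, 20 (391 unadjusted) and, at a mean count of at least 50, 860, when gains numbered 924 and so outnumbered them. Corrected gains numbered 729 with the trend fitted on all peaks and 184 at an adjusted p under 0.05. Corrected losses numbered 1314 with GC of 10 kb, 349 at an adjusted p under 0.05 and 479 at a mean count of at least 50. GC of 10 kb kept 364 of the 472 gains and 798 of the 867 losses, and quartile-wise trends kept 368 and 644. Gains among deposited calls at or above the median count were 53.6%, and 43.0% per kb of width, 45.1% GC corrected and 59.0% without repeated and AT-rich sequence. Of corrected calls, 17.6% had a like neighbour within 50 kb, against 12.8% at 20 kb, 21.1% at 100 kb, 22.5% at an adjusted p under 0.05 and 8.54% without repeated and AT-rich sequence. The median difference of exact cores from those with 2 or more mismatches was 0.09. It was 0.28 against cores of 3 or more mismatches, 0.076 without repeated and AT-rich sequence, 0.0091 with quartile-wise trends and 0.043 in the stronger peaks. Listed genes had 20 called peaks, and 36 without correction. Alternatives on repeated sequence, on count and GC together and on cores by count were chosen after seeing the data. Of 48 named peaks, 5 were no longer called with GC of 10 kb, 3 with GC of 100 kb and 5 with quartile-wise trends, among them CDS2, HOXA3, ONECUT1 and the CACNA1D loss. Counts under 18.9 had no adjusted p, which limits the weakest sites.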

Other observations

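The immunoglobulin heavy chain variable segments near the end of chromosome 14, which are silent in beta cells, held a second run of lower CTCF. Of 35 tested peaks in other sequence between chr14:105999410 and 106883550, 33 were negative, with a median of −0.50. Losses numbered 6 after GC correction, from −1.46 to −0.75, and 15 as deposited, and 1 gain as deposited was no longer called. Like the PSG genes, the segments are copies of one another.

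In other sequence on the autosomes and chromosome X, the share of tested peaks lost after correction was highest on chromosome 19, at 4.78%. Without the PSG block it was 4.20% there. It was 3.19% on chromosome 20 and 0.394% on chromosome X, where 10 peaks were gained and 4 lost. In windows of 1 Mb with a tested peak in other sequence, 2841 in all, 100 held 2 or more losses and 3 held 5 or more. By contrast, 51 held 2 or more gains and none held 4 or more. Gains and losses occurred together in 77.

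Peaks of 26 to 28% GC had a median of 0.27 as deposited and 0.39 after correction, and 13 of 122 tested were gained, beside 5 of 333 at 28 to 30% GC. The subtracted trend in this range moved with the AT-rich peaks, whose deposited median was −2.38.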
